A study of Mus musculus with 3 samples.

Results

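Transcript levels are given here for 10 transcription factor genes with known roles in endothelial cells: Gata4, Maf, Meis2, Tfec, Klf2, Klf4, Sox17, Sox18, Erg and Ets1. They were taken by gene symbol from a matrix of 31053 genes, and each symbol matched 1 row. The transcripts come from sorted non-parenchymal liver cells of Ai14 mice, which carry the LSL-Tomato reporter that turns red after Cre recombination. Each of the 3 libraries is 1 treatment: PBS, 20a-LNP or 20mix-LNP, with cells isolated 3 h after injection. Both lipid nanoparticles (LNPs) carried Cre mRNA at 0.3 mg/kg, and PBS is the buffer control. The sources used here do not give the age and sex of the mice, the number of mice in a library or the populations sorted. The barcodes carry the suffixes 1, 2 and 3, and nothing in the sources used here ties a suffix to a treatment. No treatment effect is therefore reported. Each library is named by its suffix, there are no replicates, and no test was run.

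Transcription factors set which genes a cell reads. The lining of the liver sinusoid is a specialised endothelium with open pores, high endocytic activity and no continuous basement membrane. Gata4 is known as a master regulator of this sinusoidal programme, and Maf, Meis2 and Tfec have been linked to the same identity. Klf2 and Klf4 are zinc finger factors induced by blood flow, which keep endothelium quiescent and anticoagulant. Sox17 and Sox18 belong to the SoxF group of arterial, venous and lymphatic development. Erg and Ets1 belong to the ETS family, whose members bind many endothelial promoters. Several of these genes also act outside endothelium: Tfec in macrophages, Klf4 in monocytes, and Klf2 and Ets1 in lymphocytes.

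The matrix holds 24111183 unique molecular identifiers (UMIs, each counting 1 captured mRNA) in 4638 barcodes. After filtering, 3207 cells remained (755, 1110 and 1342 for suffixes 1, 2 and 3), with a median of 5669 UMIs. Cells were assigned to 14 lineage gates by raw UMIs of marker genes that exclude the 10 factors. Of the kept cells, 882 fell in the sinusoidal endothelial gate (223, 142 and 517), 353 in the plasmacytoid dendritic, 272 in the NK or ILC1, 191 in the Kupffer (liver macrophage) and 123 in the monocyte gate. These 5 classes had at least 20 cells in every library and were compared. The sinusoidal markers Stab2, Clec4g, Gpr182, Oit3, Ptprb and Kdr summed to 15007 UMIs per 1000000 UMIs of the class (CPM) in their own gate, and to between 17.3 and 113.8 CPM in the others. Since these markers define the gate, that contrast follows from the gating. Ptprb and Kdr made up 5392 and 2902 CPM of the sum. Both were also found in barcodes rich in vascular markers, described below, at 6854 and 1278 CPM. The gate can therefore hold endothelial cells other than sinusoidal ones. Another 776 cells passed no gate and 298 matched more than 1. Of all barcodes, 3 sequences occurred under more than 1 suffix. In the library of suffix 3, 1 portal endothelial barcode held 13708 haemoglobin UMIs among 21007; without it, portal over central ratios of the 10 genes lay between 0.651 and 1.87. Transcripts of 8 hepatocyte genes, which free RNA can carry into any droplet, summed to 202, 408 and 155 CPM in sinusoidal endothelial cells, and to 414 CPM in Kupffer cells.

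The sinusoidal endothelial gate led for most of the set. A gene was called endothelial-led when its pooled CPM there was at least 2 times that of the next of the 5 classes and above it in 3 of 3 libraries. This held for 6 of the 10 genes, Gata4, Maf, Meis2, Sox17, Sox18 and Erg, against 15.1% of the 11278 genes with enough UMIs. The median ratio of the sinusoidal endothelial level to the highest other class was 6.42 over the 10 genes and 0.746 over all of those genes. The remaining 4, Tfec, Klf2, Klf4 and Ets1, were shared with or higher in immune cells. The genes were chosen for known endothelial roles, so this count describes the set. All intervals given are exact 95% intervals that cover counting error only. Since 3' counts depend on each transcript's end, levels are compared within a gene and not between genes.

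**Figure D1:**
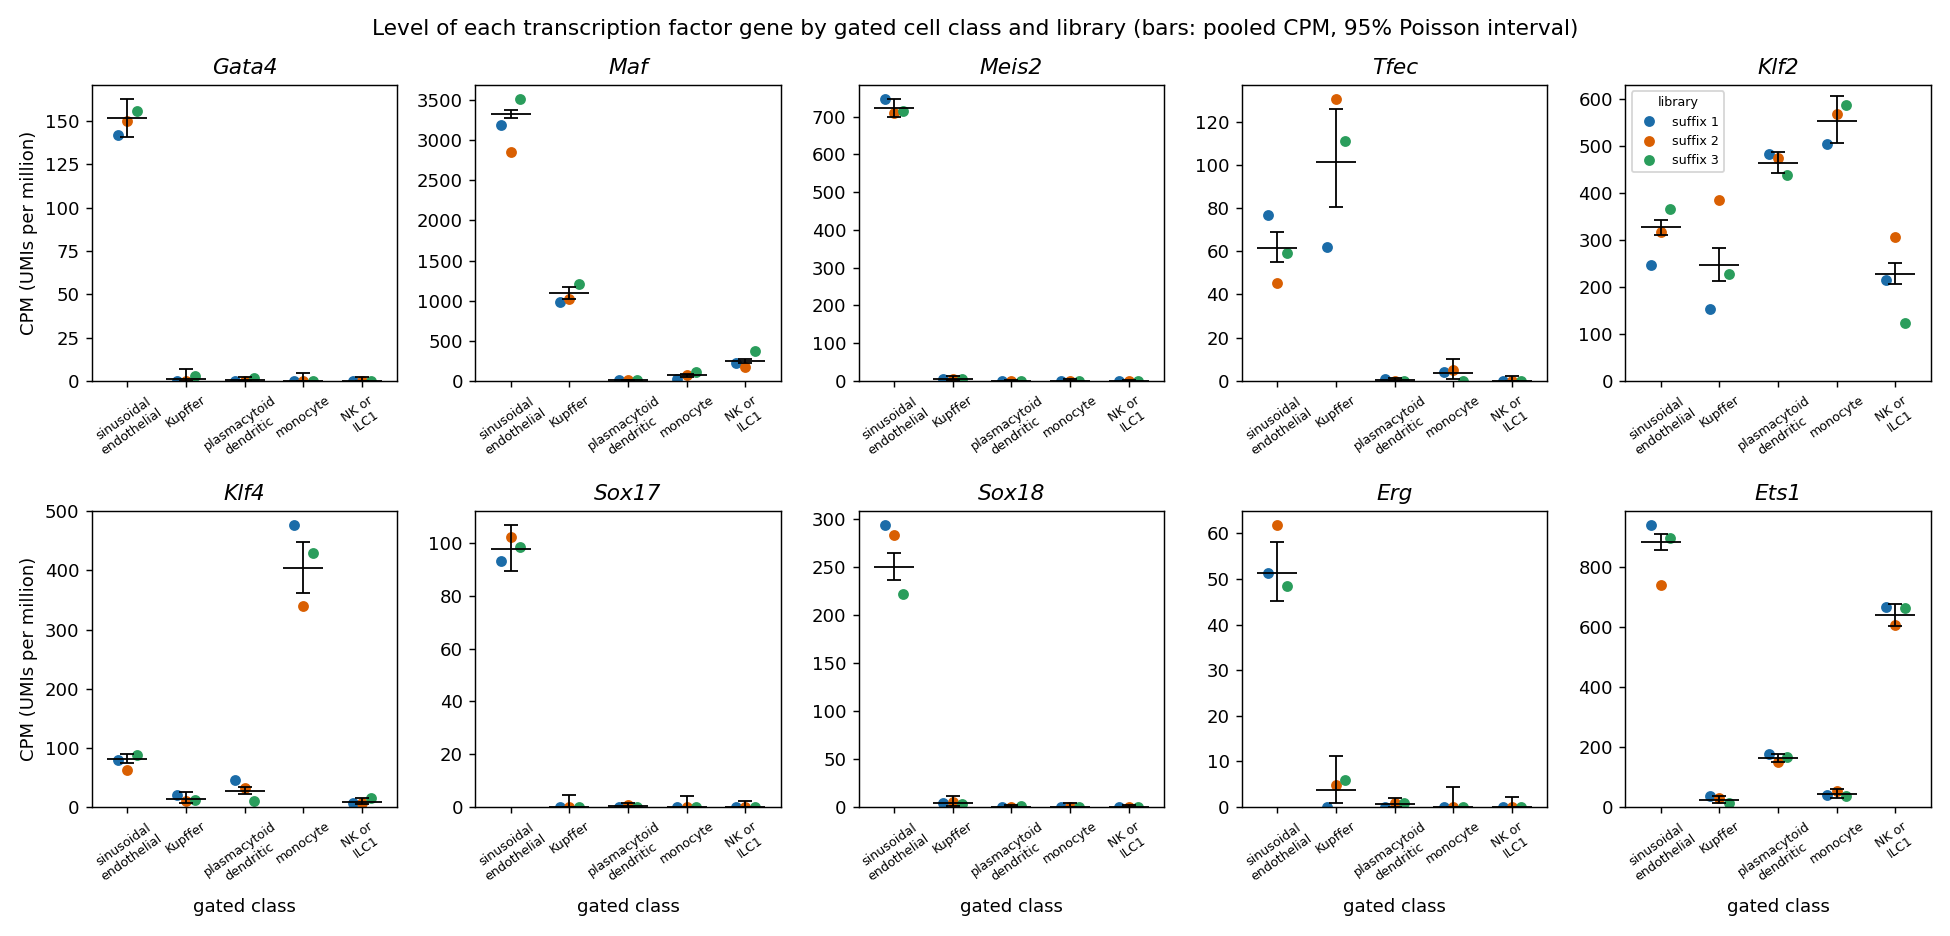
CPM of each gene (vertical axis, scale differs by panel) in the 5 compared cell classes. Coloured points are the libraries of suffixes 1, 2 and 3, black bars the pooled CPM with its 95% Poisson interval. For Gata4, Maf, Meis2, Sox17, Sox18, Erg and Ets1 every sinusoidal endothelial point lies above all points of the other classes, while Klf2 and Klf4 peak in monocytes.

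Gata4, a zinc finger factor (ENSMUSG00000021944, chromosome 14, 63198922 to 63271692, minus strand, GRCm38), was at 142, 150 and 156 CPM in sinusoidal endothelial cells of suffixes 1, 2 and 3. In Kupffer cells it had 1 UMI in all, in plasmacytoid dendritic cells 2, and in monocytes and NK or ILC1 cells 0. The 3 endothelial libraries lay close together and far above every other class. The pooled level was 151 CPM (141 to 163), against 1.26 CPM in Kupffer cells, a ratio of 120 (21.4 to 4737) that was 21.8 with cells thinned to 1000 UMIs. For NK or ILC1 cells the count of 0 allows up to 1.68 CPM. Thinned to 1000 UMIs per cell, 12.8% of 828 sinusoidal endothelial cells held a Gata4 UMI (45.4% at full depth), against 0 of 272 NK or ILC1 cells, which allows up to 1.10%.

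Meis2, a homeodomain factor and cofactor of Hox and Pbx proteins (ENSMUSG00000027210, chromosome 2, 115863064 to 116065839, minus strand), was at 746, 710 and 716 CPM in the sinusoidal endothelial libraries. It had 4 UMIs in Kupffer cells (5.06 CPM) and none in plasmacytoid dendritic cells, monocytes or NK or ILC1 cells. The endothelial values spanned a narrow range with no overlap with any class. The ratio to Kupffer cells was 143 (55.7 to 525). In plasmacytoid dendritic cells, the deepest of these classes at a median of 11411 UMIs, the count of 0 allows up to 0.829 CPM.

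Maf, a leucine zipper factor (ENSMUSG00000055435, chromosome 8, 115682942 to 115707794, minus strand), was at 3188, 2858 and 3514 CPM in sinusoidal endothelial cells. Kupffer cells followed at 984, 1019 and 1212 CPM, and NK or ILC1 cells at 227, 177 and 374 CPM. Monocytes stood at 19.6, 75.7 and 105 CPM, and plasmacytoid dendritic cells at 4.77, 7.75 and 4.68 CPM. Maf thus had a graded order over the classes, and no neighbours in that order overlapped between libraries. The sinusoidal endothelial level was 3.05 times that of Kupffer cells (2.84 to 3.27) and 13.3 times that of NK or ILC1 cells (12.1 to 14.7). After thinning, 93.2% of sinusoidal endothelial cells held a Maf UMI, against 51.9% of Kupffer, 23.5% of NK or ILC1 and 0.567% of plasmacytoid dendritic cells. T cells, compared only as a pool of 81, were at 119 CPM.

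Tfec, a helix-loop-helix factor of the MiT family (ENSMUSG00000029553, chromosome 6, 16833373 to 16898441, minus strand), was at 76.9, 45.4 and 59.3 CPM in sinusoidal endothelial cells. In Kupffer cells it was at 62.0, 130 and 111 CPM. The libraries of both classes overlapped, and only under suffix 1 was the endothelial value the higher. Pooled, Tfec was 1.64-fold higher in Kupffer cells (1.27 to 2.11). With every cell thinned to 1000 UMIs the order turned, with an endothelial over Kupffer ratio of 1.26, and the share of cells with a UMI was 7.25% (5.57 to 9.23) against 6.33% (3.08 to 11.3). Thinning left out 33 of the 191 Kupffer cells and 54 of the 882 sinusoidal endothelial cells. In the other compared classes Tfec had 4 UMIs or fewer in all: 3 in monocytes, 1 in plasmacytoid dendritic cells and 0 in NK or ILC1 cells. Tfec was therefore seen in both cell types that line or patrol the sinusoid, without a stable order between them.

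Sox17 (ENSMUSG00000025902, chromosome 1, 4490931 to 4497354, minus strand), a factor of arterial specification, was at 93.2, 102 and 98.5 CPM in sinusoidal endothelial cells. A single UMI was found among the other 4 compared classes, in plasmacytoid dendritic cells. Sox18 (ENSMUSG00000046470, chromosome 2, 181669836 to 181671640, minus strand), needed for lymphatic development, was at 293, 283 and 222 CPM. Its library of suffix 3 was the lowest, and all 3 lay far above the 3 UMIs of Kupffer cells (3.79 CPM) and the 1 UMI of plasmacytoid dendritic cells. The ratio to the next class was 354 for Sox17 (63.2 to 14001, on 1 UMI) and 65.9 for Sox18 (22.5 to 320). For Sox17 it was 226 without suffix 3 and 86.0 with no mitochondrial maximum. Both SoxF genes were at 0 in monocytes and in NK or ILC1 cells.

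Erg (ENSMUSG00000040732, chromosome 16, 95359169 to 95586593, minus strand), which keeps endothelial junctions and identity, was at 51.2, 61.8 and 48.6 CPM in sinusoidal endothelial cells. It had 3 UMIs in Kupffer cells, 2 in plasmacytoid dendritic cells and 0 in the other compared classes, a ratio to Kupffer cells of 13.5 (4.58 to 66.1). That ratio was 24.8 without suffix 3, 9.40 without suffix 1 and 8.59 with cells thinned to 1000 UMIs. Ets1 (ENSMUSG00000032035, chromosome 9, 32636221 to 32757820, plus strand), known from angiogenesis and from lymphocyte development, was at 942, 742 and 899 CPM. NK or ILC1 cells held Ets1 at 668, 608 and 666 CPM, below the endothelial value in each library. The pooled difference was 1.38-fold (1.29 to 1.47), short of the 2-fold rule. T cells (650 CPM) and B cells (855 CPM, 733 to 991), both compared only as pools, reached a similar range, and the B cell interval overlapped the endothelial one (859 to 911). Plasmacytoid dendritic cells were at 164 CPM, monocytes at 43.8 and Kupffer cells at 24.0. The pair of ETS genes thus differed in spread: Erg was nearly limited to the endothelial gate among the compared classes, and Ets1 was shared with lymphocytes.

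Klf2 (ENSMUSG00000055148, chromosome 8, 72319033 to 72321656, plus strand) was highest, among the compared classes, in monocytes, at 504, 569 and 587 CPM. Plasmacytoid dendritic cells followed at 484, 474 and 438 CPM, and sinusoidal endothelial cells at 246, 317 and 367 CPM. Monocytes, plasmacytoid dendritic cells and sinusoidal endothelial cells did not overlap between libraries, whereas the endothelial range overlapped that of Kupffer cells (153, 386 and 228 CPM). NK or ILC1 cells were at 216, 307 and 123 CPM. Klf2 was 1.70-fold higher in monocytes than in sinusoidal endothelial cells (1.53 to 1.88), in 3 of 3 libraries. Among classes seen only as pools, 56 neutrophils reached 1912 CPM (1739 to 2098) and 47 B cells 743 CPM.

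Klf4 (ENSMUSG00000003032, chromosome 4, 55527143 to 55532466, minus strand), which also drives monocyte differentiation, was at 477, 339 and 430 CPM in monocytes. Sinusoidal endothelial cells were next at 80.0, 63.1 and 87.4 CPM, and plasmacytoid dendritic cells were at 44.8, 31.8 and 9.36 CPM. These 3 classes did not overlap, and monocytes were 4.95-fold above sinusoidal endothelial cells (4.28 to 5.72). Kupffer cells (13.9 CPM) and NK or ILC1 cells (8.94 CPM) were lowest. Type 2 conventional dendritic cells, a pool of 60, held 210 CPM. The 13 immediate early genes listed beside these factors, which respond to handling and stimulation within minutes to hours, summed to 5217 CPM in monocytes, 4355 in NK or ILC1 cells, 3292 in plasmacytoid dendritic cells, 1355 in Kupffer cells and 857 in sinusoidal endothelial cells. Their part in the Klf2 and Klf4 order was not tested.

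Because Klf2 and Klf4 were both highest in monocytes among the 5 compared classes, the 250 bases upstream of their RefSeq starts (GRCm38.p6) are shown, 5′ to 3′ in the direction of the gene. Capitals mark matches to any of 7 motifs searched on both strands.
Klf2, chr8:72318812-72319061, plus strand: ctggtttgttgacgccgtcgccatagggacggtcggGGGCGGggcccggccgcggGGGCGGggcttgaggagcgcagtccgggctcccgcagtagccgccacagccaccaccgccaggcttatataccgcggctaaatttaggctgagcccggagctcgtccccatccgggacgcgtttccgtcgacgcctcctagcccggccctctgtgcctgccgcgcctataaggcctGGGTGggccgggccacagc
Klf4, chr4:55532476-55532725, minus strand: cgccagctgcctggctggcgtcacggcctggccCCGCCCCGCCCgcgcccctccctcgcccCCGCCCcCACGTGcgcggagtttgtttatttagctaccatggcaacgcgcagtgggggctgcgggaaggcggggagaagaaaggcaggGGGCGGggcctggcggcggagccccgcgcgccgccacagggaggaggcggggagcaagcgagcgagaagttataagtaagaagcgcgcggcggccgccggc
The Klf2 window held 2 GC boxes (GGGCGG) and 1 CACCC box (CACCC), the Klf4 window 4 GC boxes and 1 E-box (CACGTG), counting overlapping matches. Of 32851 RefSeq windows of the same length, 32.7% held a GC box, 52% a CACCC box and 6.02% an E-box. Neither window held the GATA motif AGATAA (9.99% of windows), the ETS motif GGAAGT (19.7%), the MEIS motif TGACAG (15.9%) or the AP-1 motif TGACTCA (4.46%). Both windows were rich in G and C, at 71.2% for Klf2 and 74% for Klf4, against a median of 52.4%. The windows of Meis2 (47.6%) and Tfec (39.2%) were not, and neither held a GC box. Erg has 3 listed starts, with 48.8%, 36% and 47.2%. Of the 10 genes, 5 matched an entry, and Gata4, Maf, Sox17, Sox18 and Ets1 did not. Motif matches are descriptions of the letters only.

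Single sinusoidal endothelial cells carried several of these factors at once. A median of 6 of the 10 genes had a UMI per cell in each library, with means of 5.39, 5.55 and 5.53. In the other 4 classes the mean lay between 1.43 and 1.99. After thinning to 1000 UMIs the endothelial mean was 2.84 (2.83, 2.84 and 2.85 by library), against 0.860 in NK or ILC1 cells, 0.810 in Kupffer cells, 0.779 in monocytes and 0.459 in plasmacytoid dendritic cells. The endothelial lead in this count thus held at equal depth. Since the genes were chosen for known endothelial roles, that lead describes the set. Genes contributed unevenly: after thinning, Meis2 was seen in 46.7% of sinusoidal endothelial cells, Gata4 in 12.8% and Erg in 5.43%.

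Over the 5 classes and 3 libraries (15 points), the levels of Gata4, Meis2, Sox17, Sox18 and Erg followed each other, with Pearson r of log2(CPM + 10) between 0.980 and 0.999. Maf followed Gata4 less closely (r = 0.672) and Tfec more closely (r = 0.802). Klf2 was not aligned with Gata4 (r = -0.0838) and correlated with Klf4 at r = 0.586. The points share libraries and cells, and a gene absent outside endothelium gives a high r by its class difference alone. Of the 5603 other genes with at least 50 CPM in a compared class, the 3 most like Gata4 were Osmr, Nid1 and Spats2l (r from 0.9993 to 0.9998). Those most like Sox17 were Cavin1, Ptprg and Robo1, and those most like Erg were Zcchc14, S100a16 and Sgce. Meis2 and Sox18 were each other's closest gene (r = 0.999), followed by Sema6a and Bmp2 for Meis2 and by Tns2 and Hecw2 for Sox18. Maf was closest to Rnf145, Drap1 and Pnpla2, and Ets1 to Ankrd12, Cdk4 and Xrn1. Tfec was closest to Vcam1, Adcy4 and Glul (r from 0.977 to 0.988), Klf4 to Agpat4, Gda and Rb1, and Klf2 to Arhgap27, Neat1 and Vrk1 (r from 0.838 to 0.851).

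Zones within the sinusoid were compared next. Blood enters the sinusoid at the portal tract and leaves at the central vein, and endothelial cells along this path differ in ligands and receptors. Cells of the sinusoidal endothelial gate were called central by Wnt2, Rspo3, Wnt9b, Kit and Cdh13, or portal by Ltbp4, Ntn4, Efnb2, Dll4, Msr1 and Adam23. This gave 62 central cells (11, 9 and 42 for suffixes 1, 2 and 3), 528 portal cells (143, 93 and 292) and 292 between the gates. Median UMIs per cell were 5873, 5963.5 and 4230.5 in central, portal and between cells. A gene was called zonal at 1.5-fold or more in the same direction in 3 of 3 libraries. None of the 10 was called central, where the background was 7.83% of 8604 genes, and Sox18 and Erg were called portal, against 9.3%. Under TMM scaling, which sets a common level from the bulk of genes, 284 genes were central and 1625 portal, against 674 and 800, and Maf and Ets1 joined the portal genes. Since the background moves this far, the genes are described singly and their count is not read as a result.

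**Figure D2:**
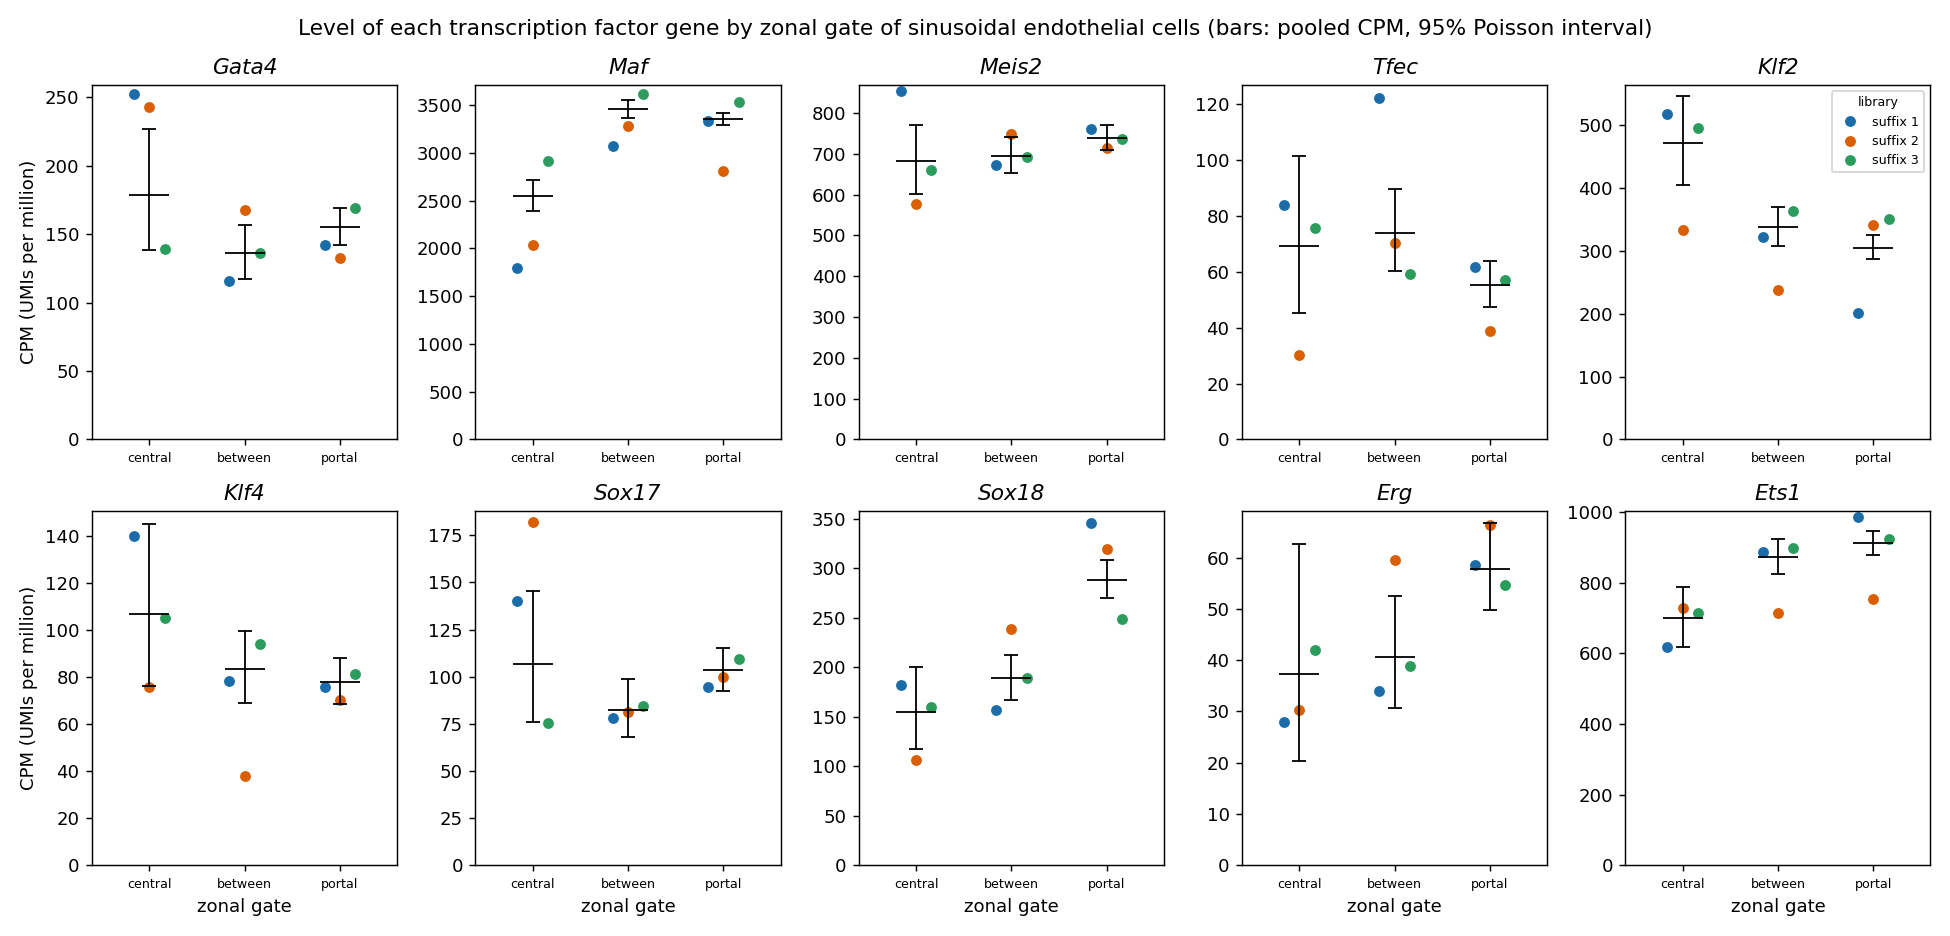
CPM of each gene (vertical axis, scale differs by panel) in central, between and portal sinusoidal endothelial cells. Coloured points are libraries by suffix, black bars the pooled CPM with its 95% Poisson interval. The central and portal points of Sox18 and Ets1 do not overlap, and the central intervals are wide because the gate holds 62 cells.

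Sox18 was at 182, 106 and 160 CPM in central cells of suffixes 1, 2 and 3, and at 346, 319 and 248 CPM in portal cells. Every portal library lay above every central library. Pooled, Sox18 was 155 CPM in central, 189 in between and 289 in portal cells, a portal over central ratio of 1.87 (1.43 to 2.48). In each of 19 other settings the portal level stayed higher, by 1.71-fold to 2.31-fold. These include a widened central gate of 141 cells, chosen after the values were seen, which gave 1.86 (1.54 to 2.25). Sox17, the other SoxF gene, showed no such order: central cells were at 140, 182 and 75.7 CPM and portal cells at 94.3, 99.6 and 109 CPM. Its ratio was above 1 in 2 libraries and below 1 in the library of suffix 3, and the pooled central over portal value was 1.03 (0.724 to 1.44).

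Erg was at 28.0, 30.4 and 42.1 CPM in central and at 58.5, 66.4 and 54.7 CPM in portal cells, without overlap. The central values rest on 14 UMIs, and the pooled portal over central ratio of 1.55 had an interval that included 1 (0.899 to 2.89). With cells thinned to 1000 UMIs the direction turned, and in the widened central gate the ratio was 1.25 (0.880 to 1.81). Ets1 was at 617, 729 and 715 CPM in central and at 984, 753 and 924 CPM in portal cells. It was higher in portal cells in 3 of 3 libraries and 1.31-fold when pooled (1.15 to 1.49), below the 1.5-fold rule.

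Maf was at 1794, 2034 and 2920 CPM in central, 3070, 3283 and 3622 CPM in between and 3334, 2814 and 3538 CPM in portal cells. Within each library the central cells were lowest, although the central value of suffix 3 exceeded the portal value of suffix 2. The pooled portal over central ratio was 1.32 (1.23 to 1.41), and 1.07, in 2 of 3 libraries, with cells thinned to 1000 UMIs. Meis2 differed little between zones, at 683 CPM in central and 740 in portal cells. Its central over portal ratio was 0.923 (0.808 to 1.05), with central higher in 1 of 3 libraries. Gata4 was at 252, 243 and 139 CPM in central cells and at 142, 133 and 169 CPM in portal cells. Its direction turned in the library of suffix 3, which holds most of the central cells. The pooled central over portal ratio of Gata4 was 1.15 (0.879 to 1.49). Tfec was at 84.1, 30.4 and 75.7 CPM in central and 61.8, 38.7 and 57.0 CPM in portal cells. Its central over portal ratio was 1.25 (0.798 to 1.90), on 26 central UMIs.

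Klf2 was at 519, 334 and 497 CPM in central cells and at 201, 341 and 351 CPM in portal cells. Central cells were higher in the libraries of suffixes 1 and 3 and level with portal cells in that of suffix 2. The pooled central over portal ratio was 1.55 (1.31 to 1.82), and the rule of 3 of 3 libraries was not met. Klf4 was at 140, 75.9 and 105 CPM in central and 75.9, 70.1 and 81.4 CPM in portal cells, higher in central cells in 3 of 3 libraries but within counting error when pooled, at 1.37 (0.956 to 1.92). With cells thinned to 1000 UMIs its ratio turned to 0.656. The immediate early genes had the opposite order, at 582 CPM in central, 703 in between and 957 in portal cells. Portal cells were higher in 3 of 3 libraries. Of 12 of these genes, 7 were called portal, against 9.3% of all genes (18.9% under TMM scaling). The part of the immediate early genes in the zonal values was not tested.

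**Figure D3:**
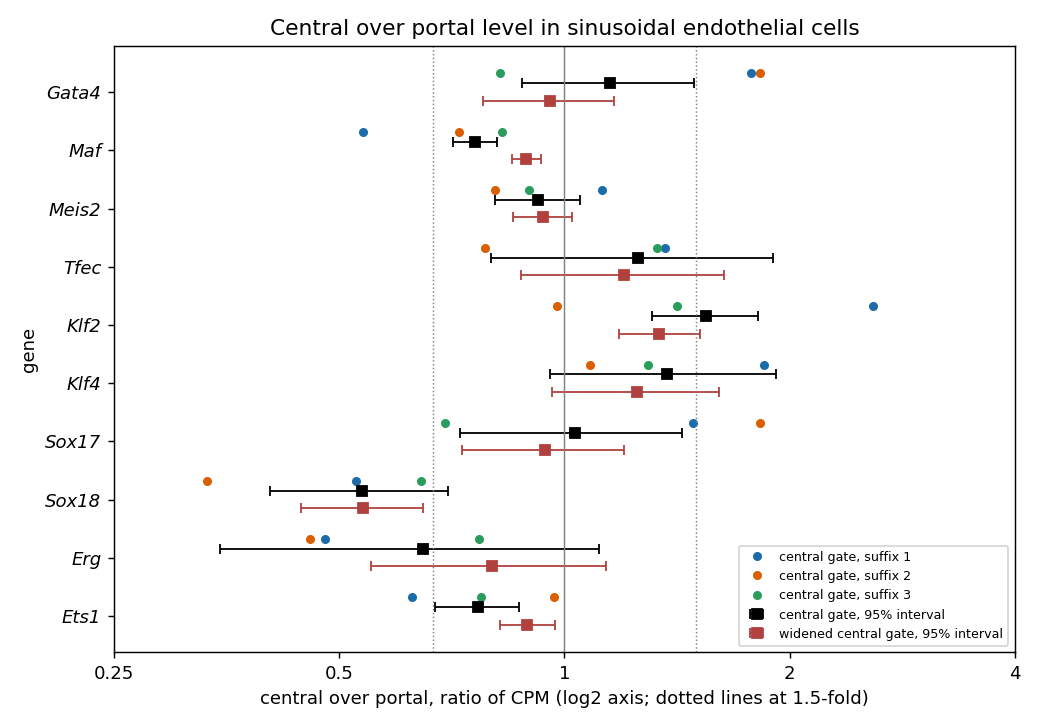
Central over portal ratio of CPM for each gene on a log2 axis, pooled with its 95% interval for the central gate of 62 cells (black) and the widened gate of 141 cells (red), and by library (coloured points). Sox18 lies below 1 in every library and under both gates, at 0.536 and 0.539.

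No cell met the gate for vascular endothelium, the lining of larger vessels. That gate also needed low counts of the sinusoidal markers, which include Ptprb and Kdr. In the barcodes described next, Ptprb was at 6854 CPM and Kdr at 1278 CPM. The empty gate can therefore follow from the gating and does not show that such cells were absent. A set of 40 barcodes rich in the vascular markers Vwf, Adgrg6, Gja5, Gja4 and Fbln5 (12, 6 and 22 by suffix) was described after the data were seen. Of these, 23 were in the sinusoidal endothelial gate and 17 were mixed. They were set against the other barcodes of the sinusoidal endothelial gate, called the rest here. Vwf was at 936 CPM in the set, against 6.93 CPM in the rest, and Stab2 at 217 against 1391 CPM. Vwf helped to pick the set and Stab2 is a gate marker, so both differences follow in part from the selection. Maf was at 1459, 632 and 1549 CPM in these barcodes and at 3273, 2883 and 3583 CPM in the rest, 2.41-fold lower (2.20 to 2.65) and apart in every library. Ets1 was at 460, 354 and 579 CPM against 965, 746 and 914 CPM, 1.76-fold lower (1.51 to 2.07). Gata4 was 1.40-fold higher (1.08 to 1.80) and Klf2 1.29-fold higher (1.08 to 1.54), each in 2 of 3 libraries, with suffix 2 the exception on 6 barcodes. Intervals of Meis2, Tfec, Klf4, Sox17, Sox18 and Erg included 1.

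**Figure D4:**
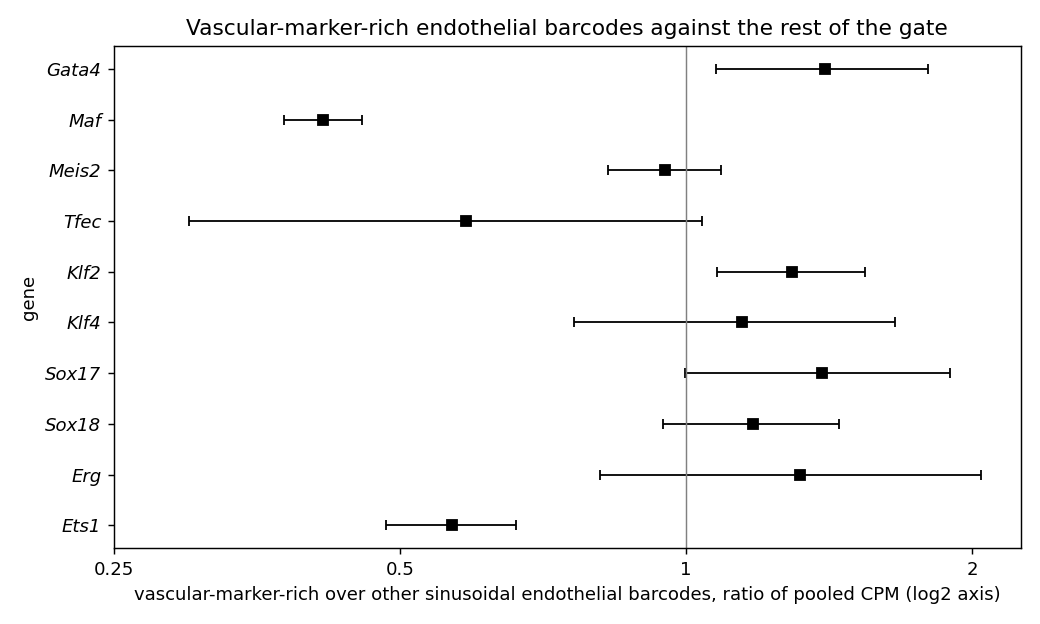
Ratio of pooled CPM between the 40 vascular-marker-rich barcodes and the other barcodes of the sinusoidal endothelial gate for each gene, on a log2 axis with 95% intervals. Of the 40, 23 were in that gate and 17 matched more than 1 gate. Maf (0.415) and Ets1 (0.568) lie well below 1.

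These barcodes bear on the zonal values, since 10 of the 62 central cells and 11 of the 528 portal cells were among them. Without them, Maf was 1.12-fold and Ets1 1.14-fold higher in portal cells, the latter in 2 of 3 libraries. Sox18 was then 1.90-fold and Erg 2.26-fold higher in portal cells, and Klf2 1.37-fold higher in central cells in 3 of 3 libraries. Klf4 fell to a central over portal value of 1.13, in 2 of 3 libraries. That of Gata4 turned from 1.15 to 0.968, with portal cells higher in 2 of 3 libraries. For Tfec it rose from 1.25 to 1.52, with central cells higher in 2 of 3 libraries.

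Relatives of these genes and other endothelial regulators were described from fixed lists. Of 31 other endothelial transcription regulators with enough UMIs, 19 were endothelial-led, against 15.1% of all genes tested. The list was chosen for endothelial regulators, so this count describes the list. Of 27 measured in both zones, 3 were called central and 2 portal, against 7.83% and 9.3% of all genes, so the zonal counts lay near the background. Those named by rule were Epas1, a hypoxia factor (898 CPM), Nr2f2, a venous identity factor (857 CPM), and Id3, an inhibitor of helix-loop-helix factors (713 CPM). Epas1 was 1.67-fold higher in portal cells, and Nr2f2 was 1.43-fold higher in central cells, short of the rule. All 5 measured SOX relatives were endothelial-led, among them Sox7, the remaining SoxF gene, at 75.7 CPM against 0.559 CPM in NK or ILC1 cells, and Sox4 at 155 CPM. Gata2 was endothelial-led at 73.5 CPM, whereas Gata6, the close relative of Gata4, stood at 4.23 CPM with too few UMIs for the rule. Gata3, a lymphoid factor, was at 78.8 CPM in NK or ILC1 cells.

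Of 10 KLF relatives 3 were endothelial-led, including Klf7 (492 CPM) and Klf9 (353 CPM), while Klf3 was at 301 CPM, against 269 in monocytes. Of 15 ETS relatives 2 were, a share near the 15.1% of all genes: Elk3 (443 CPM) and Ets2 (328 CPM), and Elf1 (279 CPM) was shared with plasmacytoid dendritic cells. None of 6 MAF relatives was. Mafg was at 172 CPM in sinusoidal endothelial and 126 CPM in Kupffer cells, and Bach1 at 120 CPM, against 156 CPM in monocytes. In the MEIS and PBX group, Meis1 (74.7 CPM) was endothelial-led and 2.10-fold higher in portal cells. Pbx2 (52.6 CPM) was not endothelial-led. None of the 3 MiT relatives of Tfec was: Mitf and Tfe3 were highest in Kupffer cells, at 56.9 and 134 CPM, and Tfeb in monocytes, at 63.4 CPM.

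Genes known to be driven by Klf2 and Klf4 in endothelium had mostly another order over the 5 compared classes than those factors. The list names endothelial targets, so its endothelial-led count describes the list. Of 8 with enough UMIs, 7 were endothelial-led, against 15.1% of all genes, 2 were called central, against 7.83%, and none portal. The exception, named after its values were seen, was Hmox1, a haem-degrading enzyme, at 33.0 CPM in sinusoidal endothelial cells, 193 CPM in monocytes and 1744 CPM in Kupffer cells. Timp3, an inhibitor of matrix proteases, was at 2165 CPM in sinusoidal endothelial and 3.46 CPM in monocytes, and was 1.51-fold higher in central cells. Aqp1, a water channel (2639 CPM), and Eng, a BMP coreceptor (1689 CPM), were 1.14-fold and 1.36-fold higher in central cells, short of the rule. Of 11 genes of the sinusoidal programme 10 were endothelial-led. Of 10 measured in both zones 6 were called portal, against 9.3% of all genes (18.9% under TMM scaling). Among them was Fcgr2b, an inhibitory Fc receptor, at 1539 CPM in central and 2731 CPM in portal cells. Mrc1, a mannose receptor, and Dnase1l3, a secreted nuclease, were not among them, at 1.45-fold and 1.29-fold higher in portal cells, short of the rule. Of 10 genes of continuous endothelium 8 were endothelial-led, 3 central (7.83% of all genes) and 1 portal (9.3% of all genes). This list and the sinusoidal programme were chosen as endothelial genes, so their endothelial-led counts describe the lists. Since the zonal background moves with scaling, their zonal counts are not read as a result. Esam (677 CPM) and Pecam1 (724 CPM) were among the 8, while the junction gene Cdh5 (897 CPM) missed the rule with 481 CPM in Kupffer cells.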

How the data were processed

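A single matrix of UMI counts, not normalized, was deposited, made with Cell Ranger 3.1.0 per the file headers, on mm10 per the submitters' processing notes. The 2 sample sheets were not used. The 10 genes, the marker gates and the 14 gene lists were chosen with earlier results of these data known. Barcodes needed at least 200 genes and at most 20% mitochondrial UMIs (1408 removed), and Scrublet (scanpy 1.11.5) called 23 doublets, which were removed. A lineage gate needed 5 UMIs over at least 2 of its markers, with every other class at most at 25% of that. A zonal gate needed 3 UMIs, at least 3 times those of the other zone. Counts were summed per class and library and given per 1000000 UMIs (CPM), with exact Poisson intervals and, for ratios, exact conditional intervals at 95%. Shares have exact (Clopper-Pearson) intervals. A count of 0 allows up to 3. Genes needed 30 UMIs for a call. Named list genes are the 3 with the highest sinusoidal endothelial CPM per list, of which some are not reported here, and like genes the 3 with the highest r. Scripts were tested on simulated data. Alternatives include edgeR's TMM scaling. Gene positions are from GENCODE M21. All p-values were left out, since no library has a known treatment.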

Additional observations from a re-analysis of the deposited data

Results flagged for a closer look

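The filter left out 267 barcodes that met the sinusoidal endothelial gate but held over 20% mitochondrial UMIs, and all 10 genes were detected in them above the 8.85 CPM that a count of 0 allows. Levels here are per 1000000 non-mitochondrial UMIs. Maf was at 3496 CPM, close to the 3614 CPM of the kept cells. Erg was at 103 CPM, 1.85-fold higher than in kept cells (1.26 to 2.64), Meis2 at 1053 CPM, 1.34-fold higher (1.2 to 1.5), and Ets1 at 1192 CPM, 1.24-fold higher (1.12 to 1.37). Gata4 was lower, at 94.4 CPM against 165 CPM, as was Klf2, at 257 CPM against 356 CPM. Tfec was at 73.8 CPM, Klf4 at 56.1 CPM, Sox17 at 82.6 CPM and Sox18 at 215 CPM, and the intervals of these 4 ratios included 1. The cause was not tested.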

How the results depend on the processing

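The count of endothelial-led genes stayed at 6 or 7 of 10 in every alternative run. The share of all genes ranged from 6.5%, with no minimum of UMIs per gene, to 19.6%. The count was 7 with Tfec, against 19.6% of all genes, when at least 500 genes and at most 10% mitochondrial UMIs were required. Kupffer cells then had too few cells to be compared. The 2 portal genes became 1 (Sox18) under that filter, 1 with cells thinned to 1000 UMIs, 1 with the widened central gate and 4 (with Maf and Ets1) under TMM scaling. In that order, 9.83%, 13.8%, 6.37% and 18.9% of all genes were portal. Erg was the gene lost in each of those 3 settings that left 1, and also without suffix 1 or without suffix 2. The zonal gate without Kit gave Maf and Sox18, against 12.6% of all genes, with Erg 1.30-fold higher in portal cells. With 1 library left out the portal count ranged from 1 to 3 and the central count from 0 to 2. Without suffix 2 the central gene was Klf2, and without suffix 3 they were Gata4 and Sox17. Without suffix 1, 2 or 3, the central share of all genes was 11%, 11.1% and 14%, against 7.83%. The portal share was 12.1%, 12.8% and 18.1%, against 9.3%. The Erg central over portal ratio turned to 1.09 after thinning, and the cause was not tested. TMM scaling moved the median zonal log2 ratio of all genes by -0.30 and the median class log2 ratio by -0.18. It made 284 genes central and 1625 portal, against 674 and 800. Classes and zones were compared within each library by suffix, and no replicate block was fitted, since no test was run. Depth limits the central values, with 62 cells and as few as 14 UMIs for a gene.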
